A study of Homo sapiens with 9 samples.

Results

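The transcripts of 54 core spliceosome genes were followed in the cytoplasm of HCT116 cells, an established human colorectal carcinoma line, after depletion of GANP or NXF1. The genes were those whose symbols begin with SNRP and a letter from A to G, SNRNP, SF3A, SF3B, PRPF, LSM or U2AF, and they were taken from 18665 genes named by a probe with 1 symbol. Chosen by symbol, they include 6 LSM proteins that act outside splicing (LSM1, LSM10, LSM11, LSM12, LSM14A and LSM14B). Each gene was represented by the brightest of its probes (70 probes in all), and 53 of the 54 passed the filter on dim probes. The exception was SNRPE, an Sm protein, whose log2 signals of 5.83 to 6.37 on the 9 arrays had a mean of 6.13, below the filter of 6.35. Cells were transfected with GANP siRNA, NXF1 siRNA or a control siRNA whose sequence is a mismatched form of that of GANP siRNA, and the RNA of digitonin-permeabilised cells was taken 72 h later. There were 9 arrays, 3 in each of the 3 groups, and each of 3 independent depletion experiments gave 1 array of each group. All groups are of this 1 line with no genetic change made to it, no total or nuclear RNA was measured on these arrays, and 1 siRNA per target cannot separate loss of the target from other effects of that siRNA.

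The spliceosome removes introns from pre-mRNA and is built from small nuclear ribonucleoproteins (snRNPs), each a small nuclear RNA (snRNA) with its own proteins. U1 recognises the start of an intron, U2 and the U2AF heterodimer recognise its branch point and end, and the tri-snRNP of U4, U6 and U5 brings the RNA parts of the catalytic centre. Sm proteins form a ring on all of these snRNAs but U6, which carries a ring of LSM proteins. GANP is the scaffold of the mammalian TREX-2 complex and NXF1 the main export receptor of bulk mRNA, so the comparisons ask which of the mRNAs that encode this machinery changed in the cytoplasm when either was depleted.

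Changes are differences of normalised log2 signal, and calls required a difference beyond 0.25 in either direction together with an adjusted p below 0.05 (limma's moderated test, Benjamini-Hochberg adjustment over 13118 genes). Equal RNA amounts were hybridised and quantile normalised, so every change is relative to the other transcripts of an array, and less RNA per cell cannot be told apart from fewer cells. MCM3AP, which encodes GANP, had log2 signals of 8.59 to 8.80 on the GANP siRNA arrays against 9.59 to 9.88 on the other 6, a difference from control of -1.04 (standard error, SE, 0.10, adjusted p = 7.0e-05). No probe carried the symbol NXF1. Of 11 colon epithelium markers 8 passed the filter. The summed linear signal of all 11 was 63011 to 66526 with control siRNA, 64116 to 68546 with GANP siRNA and 78135 to 78579 with NXF1 siRNA. VIL1, CDX1 and LGALS4 were not above the filter. KRT18 and KRT19, the brightest (15.04 and 14.15 in the controls), weigh most in the sum. After NXF1 siRNA 4 of the 8 were called up (50%, against 11.6% of all genes): CDH1 (0.86), EPCAM (0.65), KRT8 (0.35) and KRT18 (0.30). KRT19 (0.08), CDX2 (0.14), CLDN3 (-0.27) and CLDN4 (-0.03) were not called. After GANP siRNA 0 were called, where 12.2% of all genes were. Of 4 RNAs known as nuclear with a probe, 3 passed the filter. The summed signal of all 4 was 3157 to 3445 with control siRNA, 3573 to 4239 with GANP siRNA and 6291 to 7229 with NXF1 siRNA. MALAT1, the fourth, gave 6.04 to 6.34 on the log2 scale on all 9 arrays, below the filter. The members of the list moved apart. After GANP siRNA RN7SK rose by 1.12 (adjusted p = 0.00093), while RPPH1 was at -0.31 (adjusted p = 0.11) and TUG1 at -0.15 (adjusted p = 0.41). After NXF1 siRNA RN7SK and RPPH1 rose, by 2.51 (adjusted p = 2.3e-06) and 0.47 (adjusted p = 0.011), and TUG1 fell by 0.31 (adjusted p = 0.045). The part of these differences in the results below was not tested. Both depletions were compared with the same control arrays.

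Promoter sequence was examined for what the genes share besides their names. The 100 bases before the first RefSeq transcription start (build GRCh38.p14) were found for 46 of the 54 genes, and the missing ones were LSM1, LSM14A, LSM6, PRPF3, PRPF39, SF3B3, SNRNP35 and SNRPD1. On either strand, the ETS core (CCGGAAG) was present in 15 of 46 (32.6%) against 5.95% of 27305 promoters, the GC box (GGGCGG) in 19 (41.3%) against 31.3%, and the CCAAT box (CCAAT) in 14 (30.4%) against 18.7%. TATAAA was found in 0 against 5.34% and the E-box (CACGTG) in 1 against 3.46%. Median GC content was 64.5% for these promoters and 60.0% for all, and the ETS core and GC box are GC-rich themselves. The 27305 promoters were not limited to genes with a probe or a signal here, while 53 of the 54 members passed the filter. Promoters of the genes tested were not counted apart, so these shares are not set against those of other expressed genes. A match describes letters and is no evidence of a bound factor.

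The promoters of 4 genes that fell after both depletions and of the 2 that rose after NXF1 siRNA are shown, since those genes carry the comparisons that follow. Capitals mark the motifs named above, on either strand, so CCGCCC is a GC box on the other strand. They lie at chr22:24555550-24555649 (plus strand, SNRPD3, the first of 2 listed starts), chr19:40751103-40751202 (plus, SNRPA), chr19:54115654-54115753 (plus, PRPF31), chr5:157743612-157743711 (plus, LSM11), chr19:35745419-35745518 (minus, U2AF1L4) and chr10:13586865-13586964 (plus, PRPF18).
SNRPD3: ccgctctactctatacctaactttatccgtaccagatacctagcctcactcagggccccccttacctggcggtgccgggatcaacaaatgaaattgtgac
SNRPA: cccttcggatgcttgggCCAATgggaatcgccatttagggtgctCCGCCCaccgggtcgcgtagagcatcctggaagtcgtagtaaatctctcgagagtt
PRPF31: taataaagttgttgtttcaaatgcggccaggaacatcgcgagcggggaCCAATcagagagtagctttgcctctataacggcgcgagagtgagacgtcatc
LSM11: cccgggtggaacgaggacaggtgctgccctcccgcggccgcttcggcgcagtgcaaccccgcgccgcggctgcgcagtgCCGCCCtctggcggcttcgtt
U2AF1L4: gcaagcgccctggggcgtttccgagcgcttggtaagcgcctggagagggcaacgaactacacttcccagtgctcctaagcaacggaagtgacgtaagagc
PRPF18: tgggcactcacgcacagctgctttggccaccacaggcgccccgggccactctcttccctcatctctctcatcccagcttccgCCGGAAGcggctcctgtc
Motif content differed among them. SNRPA has a CCAAT box and a GC box, PRPF31 a CCAAT box, LSM11 a GC box and PRPF18 an ETS core, while none of the letters searched occurs in the windows of SNRPD3 and U2AF1L4. Of the 15 measured genes with an ETS core 0 were called after GANP siRNA and 2 after NXF1 siRNA, PRPF18 and SNRNP200, with median changes of -0.06 and -0.01. The 30 without one had 6 and 9 calls and medians of -0.13 and -0.08. Over all genes tested 12.2% and 25.6% were called in either direction. SNRPD1, called after GANP siRNA, and LSM14A, called after both, had no promoter found and enter neither group. The difference between the groups was not tested.

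After GANP siRNA 8 of the 53 transcripts fell (15.1%) and 0 rose, where 5.90% of all genes tested were called down and 6.28% up. The transcripts that fell, by 0.29 to 0.93 on the log2 scale, included SNRPD3 and SNRPD1 of the Sm ring and SNRPA of U1. The others were PRPF31 of the tri-snRNP, PRPF38A, which was only grouped with that particle, and LSM11, LSM12 and LSM14A, LSM proteins that act outside splicing. The median change of the 53 was -0.11 against 0.00 for all genes, and 41 (77.4%) were below 0 against 49.6% of all genes. In 20 of the 53 all 3 GANP siRNA arrays lay below all 3 control arrays (15.5% of all genes), and in 2 all lay above (15.8%), SNRNP70 and SNRPB2. At an unadjusted p under 0.05, 16 were lower and 1 was higher, against 12.7% and 13.3% of all genes. With the experiment number as a block, limma called 13 down and 0 up (8.49% and 9.10% of all genes), adding SNRNP200 (-0.37, adjusted p = 0.0050), SNRNP48 (-0.31, adjusted p = 0.026), PRPF19 (-0.26, adjusted p = 0.016), PRPF38B (-0.26, adjusted p = 0.016) and LSM8 (-0.25, adjusted p = 0.041). The count fell when single arrays were left out, as did that over all genes: 5 members and 4.12% of all genes were down without control array 1, 2 and 2.99% without control array 2, 5 and 3.77% without control array 3, and 2 and 3.36% without GANP siRNA array 3.

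**Figure D1:**
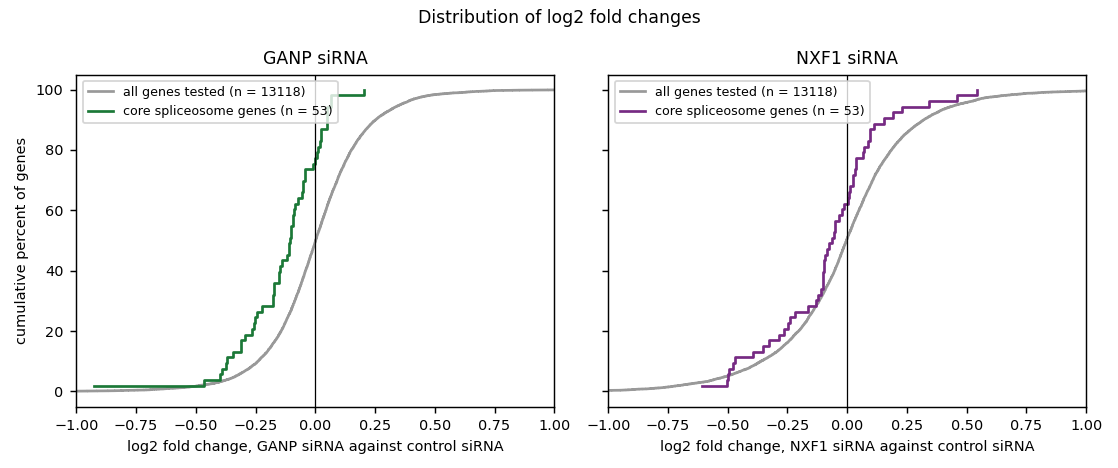
Cumulative percent of genes (vertical axis) at or below each log2 fold change (horizontal axis), for GANP siRNA on the left and NXF1 siRNA on the right, with all 13118 genes tested in grey and the 53 core spliceosome genes in colour. After GANP siRNA 77.4% of the 53 lie below 0 against 49.6% of all genes, and after NXF1 siRNA 62.3% against 50.7%.

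SNRPD3, an Sm ring protein, had the largest fall. Its log2 signals in experiments 1, 2 and 3 were 9.11, 9.41 and 9.17 with control siRNA, 8.37, 8.41 and 8.13 with GANP siRNA and 8.77, 8.81 and 8.59 with NXF1 siRNA. The 3 groups did not overlap, with GANP siRNA lowest and NXF1 siRNA between. The change was -0.93 after GANP siRNA (SE 0.11, adjusted p = 0.00024), or 0.527 times the control level, and lay between -1.04 and -0.74 within the experiments. After NXF1 siRNA it was -0.50 (SE 0.11, adjusted p = 0.0036), 0.706 times control. Both calls were kept under every alternative run.

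SNRPD1, another protein of the Sm ring, gave 9.95, 10.12 and 10.17 with control siRNA, 9.59, 9.90 and 9.65 with GANP siRNA and 9.78, 9.93 and 9.80 with NXF1 siRNA. Each depleted group lay below the controls, though the highest GANP siRNA array came close to the lowest control. The change was -0.37 after GANP siRNA (SE 0.10, adjusted p = 0.027) and -0.25 after NXF1 siRNA (adjusted p = 0.080, not called). The first was lost without control array 2 (adjusted p = 0.098), control array 3 (adjusted p = 0.096), GANP siRNA array 1 (adjusted p = 0.091) or GANP siRNA array 3 (adjusted p = 0.091). The other measured ring members, SNRPB, SNRPD2, SNRPF and SNRPG, were not called in any comparison and lay between -0.14 and 0.03 against control. They are far brighter, with mean control log2 signals of 14.05, 15.68, 14.58 and 15.29, against 9.23 for SNRPD3 and 10.08 for SNRPD1. Whether probes so bright could show a fall of the same size was not tested.

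SNRPA, which binds a stem loop of U1 snRNA, had log2 signals of 11.09, 11.15 and 11.15 with control siRNA. With GANP siRNA they were 10.82, 10.85 and 10.78, and with NXF1 siRNA 10.80, 10.73 and 10.80. Neither depleted group overlapped the controls, and the depleted groups overlapped each other. With GANP siRNA the change was -0.31 (SE 0.07, adjusted p = 0.013), lost without control array 2 (adjusted p = 0.055) or GANP siRNA array 3 (adjusted p = 0.055), and -0.35 (SE 0.07, adjusted p = 0.0027) after NXF1 siRNA. Elsewhere in U1, PRPF40B, related to the yeast U1 protein Prp40, fell after NXF1 siRNA (-0.26, SE 0.08, adjusted p = 0.032). Its arrays were 6.69, 6.76 and 6.72 in the controls against 6.47, 6.41 and 6.50, near the filter of 6.35. The call was lost without background correction and with the authors' values (-0.23 each, under the fold threshold). It was also lost on leaving out any 1 of those 6 arrays (adjusted p between 0.053 and 0.10).

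The other U1 transcripts were not called. They were PRPF39 (0.01 and 0.00 after GANP and NXF1 siRNA), SNRPC, which stabilises the pairing with the start of the intron (-0.17 and -0.05), and SNRNP70, which holds the other U1 proteins to the RNA (0.20 and 0.01). PRPF39 is dim, with a mean log2 signal of 6.67 near the filter. A dimmer probe of SNRNP70 was called up after GANP siRNA (0.40, adjusted p = 0.042), so its probes differ in call. Over the 14 genes with several probes above the filter, the probes shared their call in 12 after GANP siRNA and in 14 in each of the other comparisons, and 0 had opposite calls.

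PRPF31, which holds the U4/U6 snRNP in the tri-snRNP, gave 12.06, 12.04 and 12.12 with control siRNA, 11.81, 11.79 and 11.73 with GANP siRNA and 11.68, 11.76 and 11.60 with NXF1 siRNA. Controls were highest, and the depleted groups overlapped. GANP siRNA changed it by -0.29 (SE 0.07, adjusted p = 0.023) and NXF1 siRNA by -0.39 (SE 0.07, adjusted p = 0.0019). The first call was lost without any 1 of control arrays 1 (adjusted p = 0.054), 2 (adjusted p = 0.061) and 3 (adjusted p = 0.081) or GANP siRNA arrays 2 (adjusted p = 0.062) and 3 (adjusted p = 0.084).

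PRPF38A, which joins the spliceosome with the tri-snRNP, gave 10.08, 9.94 and 9.87 with control siRNA, 9.75, 9.60 and 9.51 with GANP siRNA and 9.86, 9.91 and 9.79 with NXF1 siRNA. The GANP siRNA arrays lay below the controls, while those of NXF1 siRNA overlapped them. The change after GANP siRNA was -0.34 (SE 0.09, adjusted p = 0.024) and within the experiments it was -0.33, -0.34 and -0.36. That call was lost without control array 1 (adjusted p = 0.089) or 2 (adjusted p = 0.066), or GANP siRNA array 2 (adjusted p = 0.075) or 3 (adjusted p = 0.097). After NXF1 siRNA the change was -0.11 (adjusted p = 0.42), and the difference between the depletions was -0.23 (adjusted p = 0.080). PRPF3 and PRPF4 of the U4/U6 snRNP, and SNRNP27 of the tri-snRNP, were not called and lay between -0.15 and -0.04 after GANP siRNA and between 0.02 and 0.09 after NXF1 siRNA.

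Of the 6 LSM proteins that act outside splicing, 3 fell after GANP siRNA and 2 after NXF1 siRNA, where 5.90% and 14.0% of all genes did. LSM14A, a processing body protein that represses translation, gave 12.36, 12.33 and 12.25 with control siRNA, 11.99, 11.98 and 11.77 with GANP siRNA and 11.99, 11.74 and 11.72 with NXF1 siRNA. Both depleted groups lay below the controls and overlapped each other. Its change was -0.40 (SE 0.09, adjusted p = 0.017) after GANP siRNA, lost without control array 1 (adjusted p = 0.054), control array 2 (adjusted p = 0.063) or GANP siRNA array 3 (adjusted p = 0.073), and -0.50 (SE 0.09, adjusted p = 0.0019) after NXF1 siRNA.

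LSM11, a subunit of the U7 snRNP that processes the ends of histone pre-mRNAs, had low log2 signals of 6.84, 7.04 and 6.88 with control siRNA, 6.43, 6.64 and 6.51 with GANP siRNA and 6.63, 6.51 and 6.63 with NXF1 siRNA. The controls stood above all 6 other arrays. GANP siRNA changed it by -0.39 (SE 0.09, adjusted p = 0.011), NXF1 siRNA by -0.33 (SE 0.09, adjusted p = 0.013). Without control array 2 neither was called (adjusted p = 0.061 and adjusted p = 0.071), and without NXF1 siRNA array 2 the second was not (adjusted p = 0.056).

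LSM12, known in flies as a partner of ataxin-2, gave 10.98, 10.79 and 10.94 with control siRNA, 10.55, 10.55 and 10.21 with GANP siRNA and 10.96, 10.90 and 10.68 with NXF1 siRNA. The GANP siRNA arrays lay below both other groups, which overlapped. It changed by -0.47 (SE 0.11, adjusted p = 0.016) after GANP siRNA and by -0.05 (adjusted p = 0.78) after NXF1 siRNA. The first call was lost without control array 1 (adjusted p = 0.056), control array 3 (adjusted p = 0.054) or GANP siRNA array 3 (adjusted p = 0.063), and its other probe gave -0.32 (adjusted p = 0.073). LSM1, the subunit that marks the cytoplasmic ring of mRNA decay, LSM10 of the U7 snRNP and LSM14B were not called (-0.15 to -0.05 after GANP siRNA, 0.01 to 0.11 after NXF1 siRNA). Leaving the 6 out, 5 of 47 genes fell after GANP siRNA (10.6%, against 5.90% of all genes), and 8 fell (17%, against 14.0%) and 2 rose (4.26%, against 11.6%) after NXF1 siRNA.

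**Figure D2:**
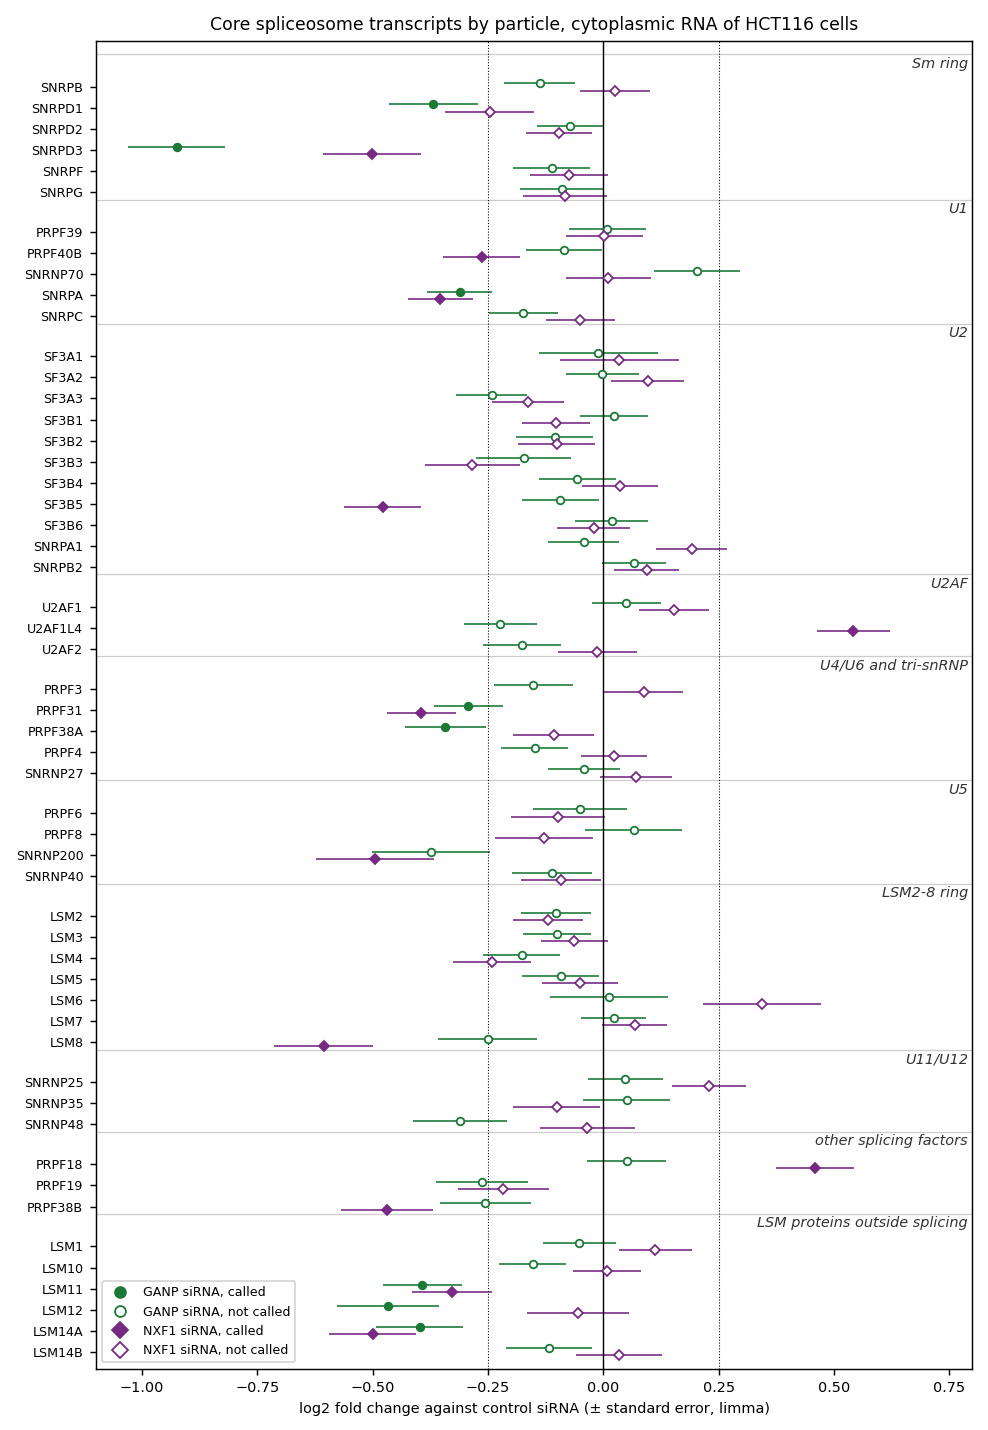
Log2 fold change against control siRNA (horizontal axis, points with standard errors from limma, 3 arrays a group) of the 53 measured genes, ordered by particle, with circles for GANP siRNA and diamonds for NXF1 siRNA, filled where called. SNRPD3 at -0.93 lies farthest left, the filled GANP siRNA points are all below 0, and U2AF1L4 and PRPF18 are the filled NXF1 siRNA points above 0.

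After NXF1 siRNA 10 of the 53 transcripts fell (18.9%) and 2 rose (3.77%), where 14.0% of all genes were called down and 11.6% up. SNRPD3, SNRPA, PRPF31, LSM11 and LSM14A fell here as after GANP siRNA, and LSM8, SNRNP200, SF3B5, PRPF38B and PRPF40B were called in this comparison and not after GANP siRNA without the block. U2AF1L4 and PRPF18 rose. The median change was -0.06 against 0.00 for all genes, and 33 (62.3%) lay below 0 against 50.7%. Arrays did not overlap the controls in 17 genes below them (21.0% of all genes) and 8 above (18.7%). At an unadjusted p under 0.05, 14 were lower and 5 higher, against 19.7% and 17.5% of all genes. With the block, limma called 11 down and 3 up (15.8% and 13.7% of all genes), adding SF3B3, an SF3b subunit (-0.28, adjusted p = 0.0061), and LSM6 of the ring on U6 (0.34, adjusted p = 0.019). Leaving out 1 array gave 8 to 11 down and 2 up.

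LSM8, the subunit that makes the LSM ring nuclear and specific to U6 snRNA, had the largest fall after NXF1 siRNA. Its signals were 10.25, 10.10 and 10.16 with control siRNA, 10.10, 9.94 and 9.72 with GANP siRNA and 9.67, 9.63 and 9.39 with NXF1 siRNA. The NXF1 siRNA arrays lay below both other groups, and the highest GANP siRNA array met the lowest control. It changed by -0.61 (SE 0.11, adjusted p = 0.0012) after NXF1 siRNA, 0.657 times control, and by -0.25 (adjusted p = 0.16) after GANP siRNA. The other 6 proteins of that ring, LSM2 to LSM7, were not called without the block. After GANP siRNA they lay between -0.18 and 0.02, and after NXF1 siRNA between -0.24 (LSM4, adjusted p = 0.050) and 0.34 (LSM6, adjusted p = 0.066).

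SNRNP200, the helicase that unwinds U4 from U6, gave 7.38, 7.72 and 7.71 with control siRNA, 7.10, 7.40 and 7.19 with GANP siRNA and 6.89, 7.33 and 7.11 with NXF1 siRNA. In each experiment the NXF1 siRNA array was lowest and the control highest, while only the NXF1 siRNA group lay wholly below the controls. Its change was -0.50 (SE 0.13, adjusted p = 0.012) after NXF1 siRNA, lost without control array 2 (adjusted p = 0.057), and -0.37 (SE 0.13, adjusted p = 0.078) after GANP siRNA. Also of U5, PRPF8 (the core of the catalytic centre), PRPF6 and SNRNP40 were not called, between -0.13 and 0.07.

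SF3B5, a small subunit of the SF3b complex of U2, gave 12.61, 12.73 and 12.58 with control siRNA, 12.55, 12.51 and 12.58 with GANP siRNA and 12.27, 12.19 and 12.02 with NXF1 siRNA. The NXF1 siRNA arrays lay below both other groups, which lay close together. The change was -0.48 (SE 0.08, adjusted p = 0.0011) after NXF1 siRNA and -0.09 (adjusted p = 0.54) after GANP siRNA. Without the block it was the sole U2 transcript called against control out of 11 measured. With the block SF3B3 was also called down after NXF1 siRNA. The others were SF3A1, SF3A2, SF3A3, SF3B1 (which contacts the branch point), SF3B2, SF3B3, SF3B4, SF3B6, SNRPA1 and SNRPB2. They lay between -0.24 and 0.07 after GANP siRNA and between -0.28 and 0.19 after NXF1 siRNA. SF3A1 is dim, with a mean log2 signal of 6.81 near the filter.

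PRPF38B, a relative of PRPF38A, gave 8.48, 8.28 and 8.31 with control siRNA, 8.22, 8.02 and 8.06 with GANP siRNA and 8.05, 7.72 and 7.89 with NXF1 siRNA. Both depleted groups lay below the controls. The change was -0.47 (SE 0.10, adjusted p = 0.0038) after NXF1 siRNA and -0.26 (SE 0.10, adjusted p = 0.12) after GANP siRNA. PRPF19, a ubiquitin ligase of the spliceosome, was at -0.22 and -0.26 and not called without the block.

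U2AF1L4, a relative of the small U2AF subunit that reads the end of the intron, had the largest rise after NXF1 siRNA. Its arrays were 8.24, 8.24 and 8.09 with control siRNA, 8.04, 7.99 and 7.86 with GANP siRNA and 8.73, 8.75 and 8.71 with NXF1 siRNA. The 3 groups did not overlap, and the depleted groups lay on opposite sides of the controls. The rise was 0.54 (SE 0.08, adjusted p = 0.00032), or 1.46 times control, and the change after GANP siRNA was -0.22 (SE 0.08, adjusted p = 0.087). Its other probe also rose after NXF1 siRNA (0.31, adjusted p = 0.024). U2AF2, the large subunit, and U2AF1, whose probe may also read a near-identical copy of the gene, were not called (-0.18 and 0.05 after GANP siRNA, -0.01 and 0.15 after NXF1 siRNA).

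PRPF18, a factor of the last catalytic step of splicing, gave 8.15, 8.09 and 8.29 with control siRNA, 8.14, 8.21 and 8.33 with GANP siRNA and 8.58, 8.59 and 8.72 with NXF1 siRNA. Control and GANP siRNA overlapped, and NXF1 siRNA lay above both. It rose by 0.46 (SE 0.09, adjusted p = 0.0017) after NXF1 siRNA, and the change after GANP siRNA was 0.05 (adjusted p = 0.77). In the U11/U12 snRNP of the minor spliceosome, SNRNP25, SNRNP35 and SNRNP48 were not called without the block. They were at 0.05, 0.05 and -0.31 after GANP siRNA and 0.23, -0.10 and -0.03 after NXF1 siRNA.

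**Figure D3:**
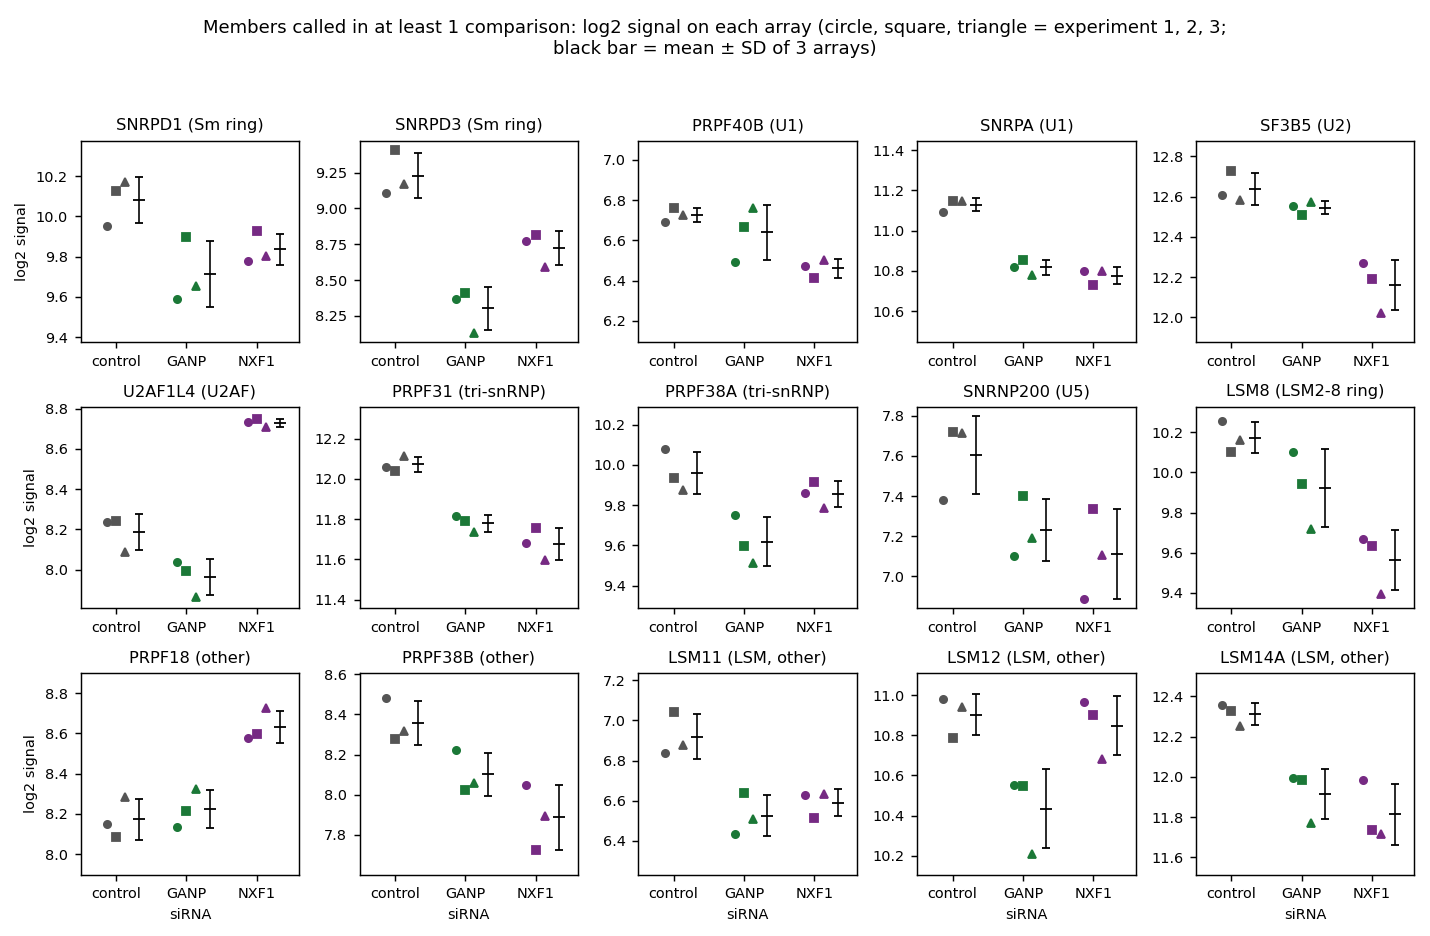
Log2 signal (vertical axis, a range of its own in each panel) on each of the 9 arrays for the 15 genes called in at least 1 comparison, with circles, squares and triangles for experiments 1, 2 and 3 and black bars for the mean and SD of 3 arrays. SNRPD3 falls from 9.11 or more in all controls to 8.41 or less with GANP siRNA, and U2AF1L4 reaches 8.71 or more on the NXF1 siRNA arrays only.

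Without the block, 5 genes were called down after both depletions, 3 after GANP siRNA only and 5 after NXF1 siRNA only. A further 38 were called in neither comparison. Over all genes tested the counts were 498, 276, 1344 and 9121. None of the 53 was called in opposite directions, against 48 of all genes. With the block, LSM8, PRPF38B and SNRNP200 were called down after both depletions and no longer after NXF1 siRNA only. The block also added PRPF19 and SNRNP48 after GANP siRNA only and SF3B3 after NXF1 siRNA only. The split with the block was not counted over all genes. These counts share the control arrays, and a call in 1 comparison and not the other is no test of a difference, which the direct comparison gives.

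Set against each other, the depletions differed in 6 of the 53 transcripts, where 19.6% of all genes were called. U2AF1L4, SNRPD3, LSM12 and PRPF18 were lower with GANP siRNA (7.55%, against 8.29% of all genes), and SF3B5 and LSM8 were higher (3.77%, against 11.3%). The median difference was -0.05 against 0.00 for all genes, and 34 (64.2%) were below 0 against 50.1%. In 14 genes the GANP siRNA arrays lay wholly below the NXF1 siRNA arrays (16.1% of all genes) and in 6 wholly above (18.5%). At an unadjusted p under 0.05, 12 were lower and 2 higher, against 15.0% and 17.5%. The block gave 6 lower and 2 higher (10.7% and 13.4% of all genes), adding LSM6 (-0.33, adjusted p = 0.028) and SNRNP48 (-0.28, adjusted p = 0.032).

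The largest difference was that of U2AF1L4, -0.77 (SE 0.08, adjusted p = 5.3e-05), and -0.70, -0.76 and -0.84 within the experiments; its other probe gave -0.51 (adjusted p = 0.0020). SNRPD3 differed by -0.42 (SE 0.11, adjusted p = 0.014), a call lost without GANP siRNA array 3 (adjusted p = 0.055) or NXF1 siRNA array 2 (adjusted p = 0.060). LSM12 differed by -0.41 (SE 0.11, adjusted p = 0.020), lost without GANP siRNA array 3 (adjusted p = 0.074), NXF1 siRNA array 1 (adjusted p = 0.062) or NXF1 siRNA array 2 (adjusted p = 0.070), and its other probe gave -0.38 (adjusted p = 0.022). PRPF18 differed by -0.41 (SE 0.09, adjusted p = 0.0053), and within the experiments by -0.44, -0.38 and -0.40. SF3B5 was higher with GANP siRNA by 0.39 (SE 0.08, adjusted p = 0.0066). LSM8 was higher by 0.36 (SE 0.11, adjusted p = 0.035), which was lost in a separate fit of the 2 groups (adjusted p = 0.056) and without GANP siRNA array 1 (adjusted p = 0.12) or 2 (adjusted p = 0.099) or NXF1 siRNA array 2 (adjusted p = 0.061) or 3 (adjusted p = 0.13).

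**Figure D4:**
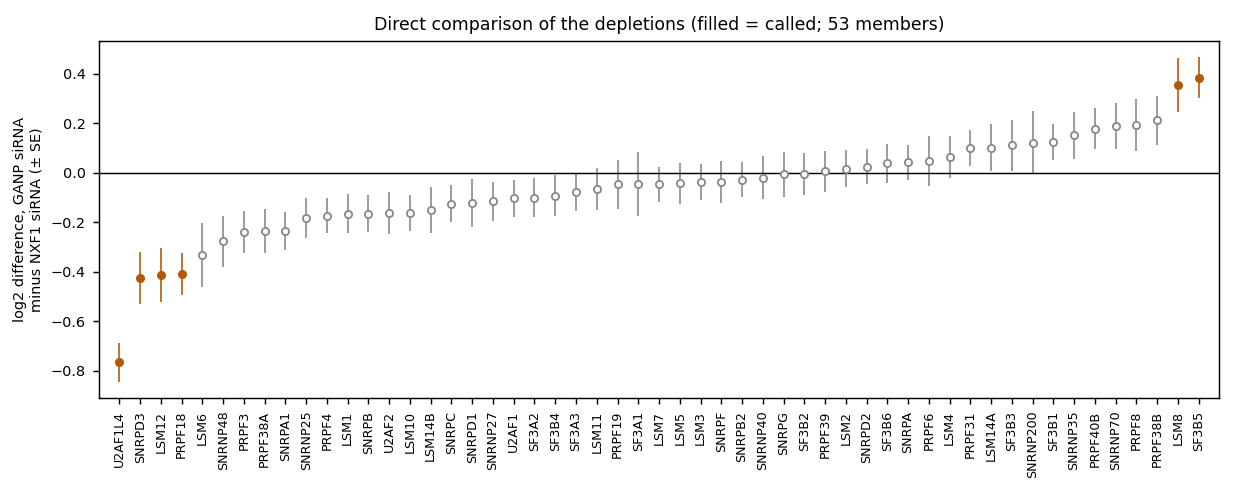
Log2 difference between GANP siRNA and NXF1 siRNA (vertical axis, positive where higher with GANP siRNA, bars are standard errors) for the 53 genes in order of the difference, filled where called. U2AF1L4 at -0.77 stands apart at the lower end, and SF3B5 at 0.39 and LSM8 at 0.36 are the called genes above 0.

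Other proteins of the spliceosome were counted from a list of 67, of which 61 were measured. After GANP siRNA 5 fell and 0 rose (8.20% and 0%, against 5.90% and 6.28% of all genes), with a median of -0.01. After NXF1 siRNA 8 fell and 7 rose (13.1% and 11.5%), close to the 14.0% and 11.6% of all genes, with a median of 0.04. DDX46, a helicase of early U2 binding, fell by 0.62 (SE 0.10, adjusted p = 0.0015) and by 0.75 (SE 0.10, adjusted p = 0.00013) respectively. TXNL4A of U5 changed by -0.50 and -0.39, and CHERP, a partner of U2, by -0.36 and -0.35, all called. Higher after NXF1 siRNA were ZMAT5 of the U11/U12 snRNP (0.75, SE 0.10, adjusted p = 0.00016), BUD31 (0.42) and ZRSR2, which reads the ends of minor introns (0.36). ZMAT5 (-0.67), BUD31 (-0.39) and MAGOH of the exon junction complex (-0.31) were the most negative of 5 called differences between GANP and NXF1 siRNA (8.20%, against 8.29% of all genes), and 0 were higher with GANP siRNA (11.3% of all genes).

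Among 25 genes of snRNP assembly, all measured, 3 fell after GANP siRNA (12%, against 5.90% of all genes) and 6 after NXF1 siRNA (24%, against 14.0%), with medians of -0.09 in each comparison. In neither did any rise, where 6.28% and 11.6% of all genes did. GEMIN8 of the SMN complex, which loads Sm rings onto snRNAs, fell by 0.38 (SE 0.10, adjusted p = 0.032) and by 0.72 (SE 0.10, adjusted p = 0.00031). COIL, the Cajal body protein coilin, changed by -0.29 and -0.38, called both times. WDR77 of the methylosome, which modifies Sm proteins, was called after GANP siRNA (-0.34), and CLNS1A, an Sm chaperone, after NXF1 siRNA (-0.39). In the direct comparison 4 were higher with GANP siRNA (16%, against 11.3% of all genes), led by GEMIN8 (0.34), GEMIN4 (0.29) and MEPCE (0.28), and 1 was lower (4%, against 8.29%), SMN2 (-0.36), though its probe may read SMN1 too.

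Of the snRNAs searched for, only RNU6ATAC, RNU2-1 and RNU11 had a probe with 1 symbol, so the others were not measured. RNU6ATAC, the U6 counterpart of the minor spliceosome, gave 7.09, 7.11 and 7.34 with control siRNA, 7.75, 7.57 and 7.65 with GANP siRNA and 8.09, 8.43 and 8.43 with NXF1 siRNA, with no overlap of the 3 groups. It rose by 0.48 (SE 0.11, adjusted p = 0.012) and by 1.14 (SE 0.11, adjusted p = 1.9e-05). RNU2-1, the U2 snRNA, gave 6.06, 6.15 and 5.93 with control siRNA, 6.38, 6.19 and 6.41 with GANP siRNA and 7.52, 8.0 and 7.27 with NXF1 siRNA. It passed the filter of 6.35 only through the NXF1 siRNA group, so that difference is no result, and U2 has many near-identical copies that a probe cannot tell apart. RNU11 of the minor spliceosome rose by 0.33 after GANP siRNA (SE 0.08, adjusted p = 0.022) from 7.57, 7.62 and 7.46 to 7.83, 7.93 and 7.89, and with NXF1 siRNA it gave 7.85, 7.81 and 7.63 (0.21, adjusted p = 0.081).

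RN7SK, a nuclear RNA of transcription control and no spliceosome component, is given beside them as the called one of 3 measured nuclear RNAs after GANP siRNA. It gave 9.92, 9.58 and 9.29 with control siRNA, 11.02, 10.55 and 10.59 with GANP siRNA and 12.13, 12.27 and 11.93 with NXF1 siRNA. These RNAs lack the long poly(A) tail on which the labelling of mRNA relies, they act in the nucleus and the arrays read cytoplasmic RNA, and how they came to be labelled or more abundant there was not tested.

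**Figure D5:**
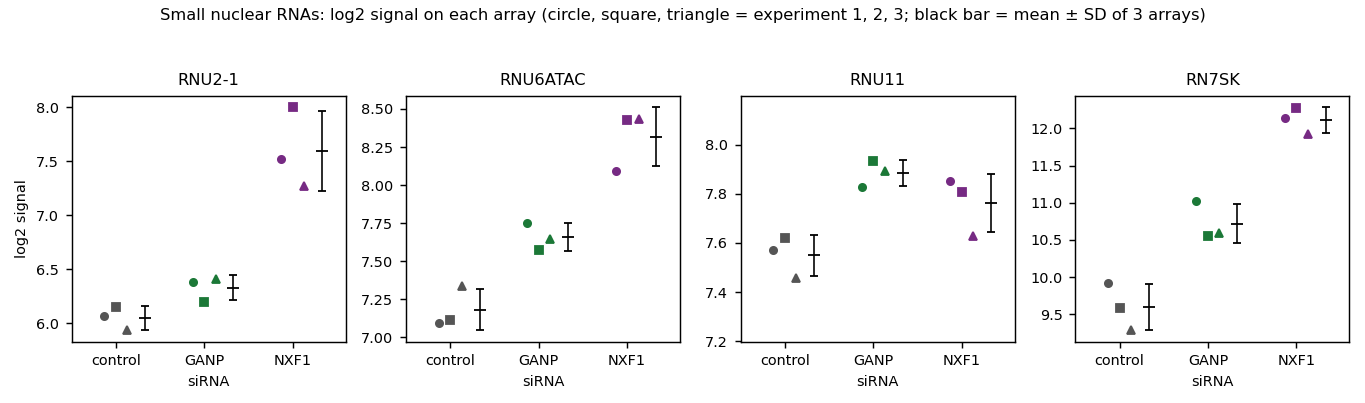
Log2 signal (vertical axis, a range of its own in each panel) on each of the 9 arrays for RNU2-1, RNU6ATAC, RNU11 and RN7SK, with circles, squares and triangles for experiments 1, 2 and 3 and black bars for the mean and SD of 3 arrays. RNU6ATAC and RN7SK are highest with NXF1 siRNA, where RN7SK reaches 12.27, the depleted groups overlap for RNU11, and RNU2-1 passed the filter only through the NXF1 siRNA group.

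Chromosome 19 holds 10 of the 53 genes (18.9%) against 913 of 13104 genes with a chromosome (6.97%). SNRPA, PRPF31 and LSM14A, which fell after both depletions, are among the 10 (30% down in each comparison), while of the 913 the depletion of GANP was followed by calls down in 5.70% and that of NXF1 in 11.5%. U2AF1L4 lies there as well, and the others, SNRPD2, SNRNP70, SF3A2, U2AF2, LSM4 and LSM7, were not called in any comparison. No other chromosome was counted. The falls of SNRPA, PRPF31 and LSM14A are already among those given above and are no separate result about position.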

How the data were processed

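Per the labels and methods, the authors labelled cytoplasmic RNA as biotinylated cRNA, hybridised it to Illumina HumanWG-6 v3 arrays, read them in BeadStudio, quantile normalized them and used lumi (version not stated) and limma. The deposited values are linear, normalized intensities of 48803 probes. A deposited table of unnormalized signals, whose 18 columns of signals and detection p-values no label pairs with a sample, was not used.

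Intensities were corrected with normexp (offset 50), quantile normalized again and log2 transformed in limma 3.58.1 (R 4.3.3), with the authors' values as an alternative. Of all probes, whatever their symbols, 24401 had a mean above the median over all probes (6.35). Those of them with 1 symbol were retained (of all probes 27578 had 1, 13 several, 21212 none). The brightest represented its gene (13118 genes). The 3 groups were fitted together (lmFit, eBayes, 6 residual degrees of freedom), with 3 comparisons and Benjamini-Hochberg adjustment over all genes. The fold threshold is the one a legend of the study gives for downregulated mRNAs, used here in both directions. Array number, 3 per group, limits precision. The scripts were tested on simulated data.

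Titles number 3 independent depletion experiments. Arrays sharing a number correlated at 0.107 to 0.461 over 9 pairs, after group means were removed, and the other 18 pairs at -0.40 to 0.12, so the experiment pairs the samples. The blocked fit was an alternative, since the methods name no block. Counts and calls are those of the fit without the block, which leaves this pairing out, unless the block is named. Calls that the block added are given with the counts of each comparison. Named genes were every member by particle, in full for the 6 largest called rises and falls of each comparison, and up to 3 called genes per direction and comparison of the lists of other spliceosome and snRNP assembly genes. Lists also held snRNAs and markers for fibroblasts, blood cells and colon epithelium. Of 6 fibroblast and 5 blood genes with a probe 2 and 2 passed the filter. The summed signals of all 6 and all 5 were 461 to 506 and 504 to 641 over the 9 arrays. The members and lists were chosen with earlier results of these data known.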

Additional observations from a re-analysis of the deposited data

Results flagged for a closer look

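Among the core spliceosome genes, 6 were listed because the difference between GANP siRNA and NXF1 siRNA itself passed the test. With GANP siRNA relative to NXF1 siRNA, U2AF1L4 was at -0.77, SNRPD3 at -0.42, LSM12 at -0.41, PRPF18 at -0.41, SF3B5 at 0.39 and LSM8 at 0.36 on the log2 scale. Of these, U2AF1L4, PRPF18 and SF3B5 kept the call under every alternative run, and SNRPD3, LSM12 and LSM8 lost it when some single arrays were left out. Groups of 3 arrays were too small to search for outlying samples.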

How the results depend on the processing

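Under median scaling, the authors' values, no background correction, a filter at percentile 75, no filter, no fold threshold, an intensity trend, averaged probes and separate fits of each pair, the counts of members called stayed within 1.5 times the reported ones, except that the separate fit left 1 member higher with GANP siRNA than with NXF1 siRNA in place of 2. The replicate block, which pairs the experiments, raised the members down after GANP siRNA from 8 to 13, and the other counts stayed within 1.5 times. Leaving out 1 array gave 2 to 8 down and 0 up after GANP siRNA (392 to 864 and 488 to 903 of all genes), 8 to 11 down and 2 up after NXF1 siRNA (1420 to 1868 and 1185 to 1559 of all genes), and 1 to 2 higher and 2 to 5 lower in the direct comparison (1060 to 1495 and 674 to 1128 of all genes). The lowest count of 2 lower came without NXF1 siRNA array 2. The causes were not tested.

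Of 490 alternative values for 26 calls of single members, 447 kept the call, 43 lost it and 0 changed direction, and 13 calls were kept throughout. A dimmer probe of the same gene was tried after seeing the data. Depth on arrays is signal over background: LSM11 and PRPF40B lie near the filter, and SNRPE lies under it. Among genes not called, PRPF39 (mean log2 signal 6.67) and SF3A1 (6.81) also lie near the filter, so a change there could be missed.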
